A study of Mus musculus with 8 samples.

Results

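Expression of 8 genes of hepatic glucose and fructose metabolism was measured by RNA-Seq in the livers of WT and HKO mice: Pck1 and Fbp1 of gluconeogenesis, Slc2a2 and Gckr at the entry and phosphorylation of glucose, Pklr and Pfkfb1 of glycolysis, Ppp1r3b of glycogen storage and Khk of fructose use. They were chosen by symbol as the 8 of 17810 listed genes that carry these names. Mice called HKO carry miR-33 loxP/loxP alleles that Cre recombinase under the albumin promoter deletes in hepatocytes. Whether all other liver cells, such as cholangiocytes, keep miR-33 was not measured here. Both genotypes were male littermates and received CD-HFD, a diet high in fat and free of added choline that leads to steatosis, for 3 months. It was begun at 8 weeks, and livers were taken at 5 months of age from 4 mice of each genotype, with 1 library per liver. Livers were perfused with PBS and frozen, and the mice had been fasted before the end point. Whether WT mice carry floxed alleles without Cre is not given in the sources used here. The comparison of the genotypes addresses whether deletion of miR-33 in hepatocytes alters transcription in steatotic liver, here for the genes that make, take up, store and break down glucose.

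The liver releases glucose by breaking down glycogen and by gluconeogenesis, which runs from pyruvate and amino acids through phosphoenolpyruvate to glucose. After a meal the same cells take up glucose, phosphorylate it, store it as glycogen and degrade it by glycolysis. Fructose is phosphorylated in the liver by its own kinase, and so passes by the early regulated steps of glycolysis. Fasting hormones raise transcription of Pck1, whereas glucose and insulin raise that of Pklr.

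None of the 8 genes differed between WT and HKO livers past the threshold of an adjusted p under 0.05 (quasi-likelihood F-test of edgeR, adjusted over 12395 tested genes by the method of Benjamini and Hochberg). By edgeR, 5.03% of all tested genes passed, 1.66% as higher and 3.37% as lower in HKO livers (206 and 418 genes; 119 and 621 under total count scaling), so that 0 of 8 stands beside a low background. DESeq2 and limma-voom also called 0 of 8, where they called 8.2% and 4.86% of all genes. At an unadjusted p under 0.05 the count was 1 of 8, Khk, beside 19.8% of all tested genes. All 8 passed the filter on low counts. In all 8 the ranges of the 2 genotypes overlapped. Ranges did not overlap in 12.5% of all genes, so that 0 of 8 without overlap is close to the background. The largest differences in mean level were those of Pck1, higher in HKO livers by 1.30-fold, and of Pklr and Khk, at 0.840 and 0.845 of the WT level, and none of these was larger than the spread between livers allows to be called. The fitted log2 fold changes (HKO over WT throughout) were above 0 for 3 members and below 0 for 5, with a median of -0.06 against 0.01 over all tested genes. Over all tested genes 6402 were above 0 and 5993 below, the background for the counts of sign given below.

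**Figure D1:**
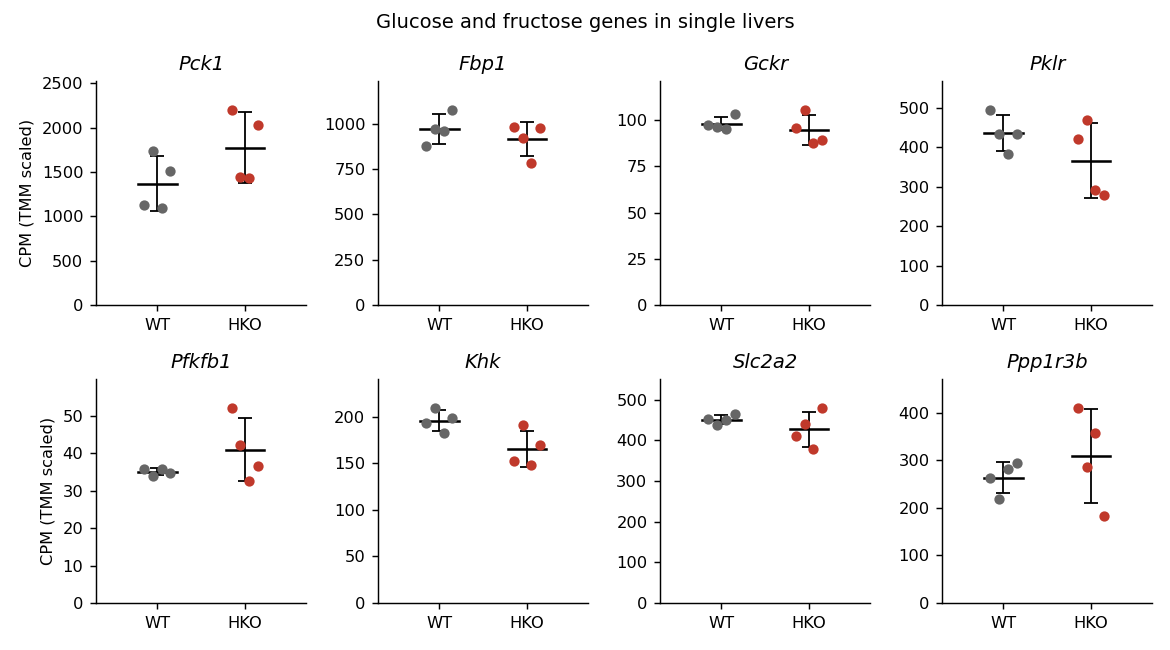
CPM (gene counts relative to the TMM-scaled total of the library, y axis) of the 8 genes in single livers; each point is 1 liver, grey for WT and red for HKO, and the line and bar are the mean and SD of 4 livers. The genotypes overlap in every panel, and the HKO points of Pfkfb1, Pklr, Slc2a2 and Ppp1r3b lie farther apart than the WT points.

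Library totals ran from 12174339 to 18319736 counts in WT and from 12509201 to 18735785 in HKO livers, so that each member had at least 431 counts (Pfkfb1) and at most 32564 (Pck1) in a liver. Counting error is small at this depth, and the spread between mice limits the comparison. Mir33 was not analysed here, and genotypes rest on the labels alone. HKO liver 3 stood apart from the other libraries: its chi-square over genes, per degree of freedom, was 114.7 to 217.5 against every other liver, where pairs without it had 19.7 to 82. It was the lowest HKO liver for 6 of the 8 members. Without it 0 members were called, and the log2 fold changes of the members were 0.47 for Pck1, -0.01 for Fbp1, -0.015 for Gckr, -0.16 for Pklr, 0.32 for Pfkfb1, -0.19 for Khk, -0.02 for Slc2a2 and 0.15 for Ppp1r3b. The column names end in numbers, 55 to 58 for HKO and 59 to 62 for WT libraries. The labels do not say what these numbers stand for, and they cannot be told apart from genotype. The defining hepatocyte gene Alb ranged from 62295 to 96088 CPM in WT and from 47064 to 98815 CPM in HKO livers, while Cpa1 of pancreas and Umod of kidney stayed at or under 3 counts in every liver. In bulk tissue, fewer cells of a type and less RNA per cell cannot be told apart. Of 8 hepatocyte markers 4 were called higher in HKO livers (Cps1, Tat, Serpina1a and Hnf4a) and 0 lower, beside 1.66% and 3.37% of all tested genes. Of the 8 markers 6 were above 0 and 2 below. Their summed CPM overlapped, from 76985 to 110839 in WT and from 66997 to 121338 in HKO livers. The summed CPM of 7 pericentral hepatocyte genes ran from 12584 to 14278 in WT and from 16036 to 18076 in HKO livers. That of 7 periportal genes, among them Pck1, ran from 3136 to 3665 and from 3517 to 4835. Of the pericentral genes 1 was called higher and 0 lower, and of the periportal genes 1 was called higher and 1 lower. The part of these differences in the values below was not tested.

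Sequences of the miRNA and of a few control elements are given first, since they show what the deleted miRNA could pair with and which textbook elements the members carry. Mouse miR-33 gives 2 mature strands from chromosome 15 (GRCm38.p6, plus strand), shown from RefSeq in lower case with the seed, bases 2 to 8, in capitals. The 5p strand comes from chr15:82198127-82198147 and the 3p strand from chr15:82198167-82198188.
miR-33-5p: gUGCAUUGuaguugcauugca
miR-33-3p: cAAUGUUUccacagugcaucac
A match to the 5p seed was counted as CAATGCA, or as AATGCAA, which leaves out 1 seed base and ends in A. It was absent from the longest annotated 3′ untranslated region of all 8 members, where 16.2% of 11529 tested genes held at least 1. The regions of Pck1, Fbp1, Gckr, Pklr, Pfkfb1 and Khk had 627, 223, 223, 1211, 256 and 201 bases. Those of Slc2a2 and Ppp1r3b had 3883 and 3276, and the median over the tested genes was 1214. The shares were not adjusted for this length. A match to the 3p seed (AAACATT or, in the same way, AACATTA) was present in 1 of 8 members, Slc2a2, where 25.8% of genes held at least 1. The match starts at base 610 of 3883. The stretch around it, chr3:28728075-28728104 on the plus strand (GRCm38), is shown with the match in capitals.
Slc2a2 site: acagtgagagaAAACATTttagtttctttg
These letters are a description and not a measured site.

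Response elements were searched on both strands in RefSeq windows from 250 bases before to 50 after annotated starts (GRCm38.p6), of which 11 belong to 7 members. The carbohydrate response element, a paired E-box that binds Mlxipl (ChREBP), was found in the window of the downstream start of Pklr, 170 to 154 bases before it. It was present in 0.119% of 32851 windows, and the stretch around the Pklr match, chr3:89136413-89136509 on the plus strand, is shown with the match in capitals.
Pklr promoter: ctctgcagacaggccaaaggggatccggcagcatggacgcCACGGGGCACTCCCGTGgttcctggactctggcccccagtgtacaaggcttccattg
A variant of the cyclic AMP response element (TTACGTCA) was found 93 to 86 bases before the start of Pck1, and in 0.499% of all windows. The stretch around it, chr2:173152940-173153027 on the plus strand, is shown with the element in capitals.
Pck1 promoter: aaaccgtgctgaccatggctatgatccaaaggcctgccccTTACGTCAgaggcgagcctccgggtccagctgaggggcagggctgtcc
The full palindrome of that element (TGACGTCA, in 1.79% of windows) and the FOXO letters GTAAACA (3.65%) had no match in a member's window, which says only that these letters are not there. The E-box CACGTG, part of 7.15% of windows, matched Khk from 71 to 66 bases before its start.

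Per length of exon, the members covered a wide range of levels in WT livers. Fbp1 stood highest at 655 ± 54.7 CPM per kb (SD, n = 4) and Pck1 next at 515 ± 116, and these neighbours overlapped between livers. Pklr followed at 143.2 ± 14.9, Khk at 114 ± 6.46, Slc2a2 at 80.9 ± 2.09, Ppp1r3b at 58.1 ± 7.20 and Gckr at 43.2 ± 1.60 CPM per kb, and none of these neighbours overlapped in WT livers. Pfkfb1 was the lowest at 15.6 ± 0.380 CPM per kb. In the order of 11627 genes Fbp1 stood at place 75 and Pfkfb1 at place 2631. In HKO livers Pck1, at 668 ± 149, was above Fbp1, at 619 ± 62.6 CPM per kb, again with overlap.

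**Figure D2:**
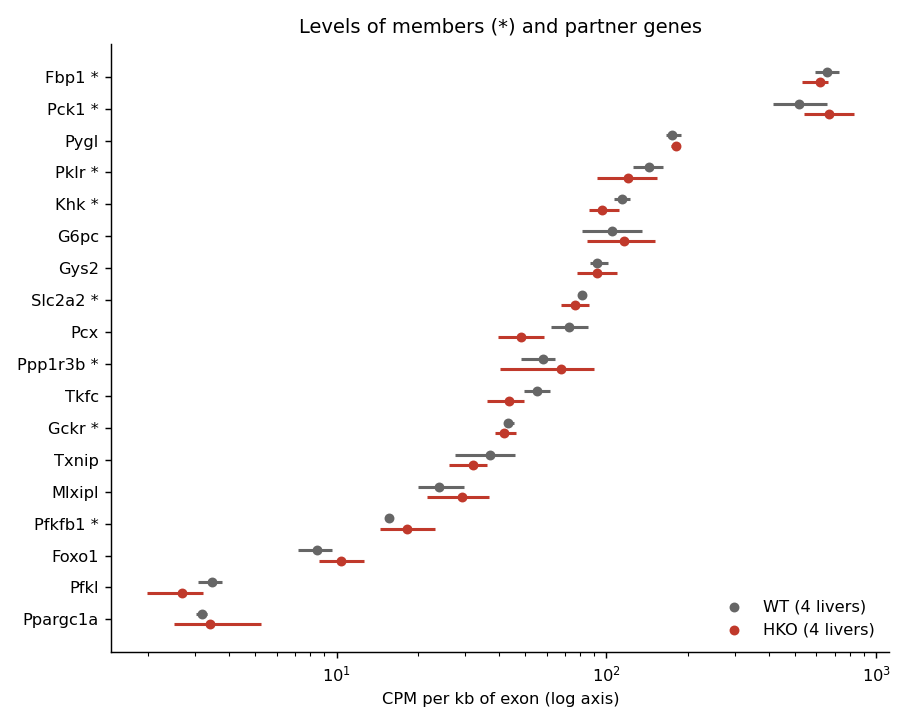
Level of the 8 members (marked with an asterisk) and 10 partner genes in CPM per kb of exon on a log axis; points are means of 4 livers and bars run from the lowest to the highest liver, grey for WT and red for HKO. Fbp1 and Pck1 lie above the other genes shown, and Pfkfb1 is the lowest member, at 15.6 CPM per kb in WT livers.

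Gluconeogenesis was represented by its cytosolic entry and by the second of its bypass reactions. Pck1 (chr2:173153073-173159274, plus strand, GRCm38) encodes the cytosolic phosphoenolpyruvate carboxykinase, which turns oxaloacetate into phosphoenolpyruvate. WT livers had 1131, 1741, 1098 and 1508 CPM of Pck1, and HKO livers 2197, 1444, 1436 and 2033 CPM. A pair of HKO livers lay above every WT liver, and the other HKO livers lay within the WT range. The log2 fold change was 0.38 ± 0.19 (SE, edgeR adjusted p = 0.313), and the 95% interval of the fold, 0.969 to 1.74, included no difference. An exact two-sided permutation test of the 70 allocations of livers gave p = 0.171, where 0.0286 is the smallest it can give. In each genotype the 2 livers with the most Pck1 were also the 2 with the highest summed CPM of 5 erythroid genes. These sums were 175 and 212 against 56.9 and 76.1 in WT and 86.6 and 89.7 against 75.8 and 64.1 in HKO livers. The same livers were also highest in the summed CPM of the 7 pericentral genes and of the 7 periportal genes, which include Pck1, but not of the 8 hepatocyte markers. The order is thus not particular to the erythroid genes. It was seen only after the values were known and was not tested.

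Fbp1 (chr13:62864753-62888282, minus strand) encodes the fructose bisphosphatase that reverses the phosphofructokinase step. Its values were 876, 969.7, 958 and 1073 CPM in WT and 981, 923, 783 and 978 CPM in HKO livers. All but the third HKO liver lay within the WT range. The fold of 0.945 had a 95% interval of 0.812 to 1.10 (edgeR adjusted p = 0.718).

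Around these members, 2 of the 14 tested genes of gluconeogenesis were called, both lower in HKO livers. Pcx, the mitochondrial pyruvate carboxylase that opens the pathway, had 321, 391, 326 and 286 CPM in WT and 269, 223, 182 and 205 CPM in HKO livers. No HKO liver reached the lowest WT liver, and Pcx fell by 0.59 ± 0.13 (SE) on the log2 scale (edgeR adjusted p = 0.0239). Gpi1, the reversible isomerase shared with glycolysis, fell by 0.42 ± 0.11 on the log2 scale with an adjusted p close to the threshold (edgeR, 0.0498), a call that was lost by limma-voom (adjusted p = 0.0628), under RLE scaling (edgeR, 0.0522) and without robust estimation (edgeR, 0.0578). G6pc, the glucose-6-phosphatase subunit that frees glucose at the end of the pathway, had 196, 273, 326 and 215 CPM in WT and 230.4, 204, 318 and 365 CPM in HKO livers. These ranges overlapped almost fully, and the log2 difference was 0.14 ± 0.22 (edgeR adjusted p = 0.788). Got1, the cytosolic aspartate aminotransferase, named after its values were seen, had 105, 125, 129 and 134 CPM in WT and 448, 278, 147 and 370.2 CPM in HKO livers. The lowest HKO liver was above the highest WT liver, and the log2 fold change of 1.33 ± 0.32 missed the threshold by edgeR (adjusted p = 0.0628) and passed it by DESeq2 (adjusted p = 0.00209) and limma-voom (adjusted p = 0.0305). Got1 also passed by edgeR without robust estimation (adjusted p = 0.0212). Of the 8 edgeR fits with a single liver left out it passed in 1, without HKO liver 3 (adjusted p = 0.000847). Over all 14 genes 9 were above 0 and 5 below, with a median log2 fold change of 0.10.

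At glucose uptake and phosphorylation, the transporter and the regulatory protein had fold changes near 1 with narrow intervals, and neither was called. Slc2a2 (chr3:28697903-28728360, plus strand) encodes the main glucose transporter of hepatocytes, which moves glucose in both directions. Its CPM was 451, 437, 449 and 466 in WT and 410.4, 440.5, 378 and 479 in HKO livers. WT livers lay within a narrow band, and HKO livers extended beyond it on both sides. The fold was 0.948, with a 95% interval of 0.831 to 1.08 (edgeR adjusted p = 0.683). Slc2a2 is also the member with the 3p seed match shown above.

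Gckr (chr5:31297563-31327302, plus strand) encodes a regulatory protein that restrains glucose phosphorylation in hepatocytes while glucose is low. Counts of Gckr gave 97.3, 96.4, 95.2 and 103 CPM in WT and 96.0, 105, 87.8 and 89.6 CPM in HKO livers. The fold was 0.965 with a 95% interval of 0.857 to 1.09 (edgeR adjusted p = 0.786), the narrowest interval of the 8 members. None of the 7 tested genes of this step was called, and 2 were above 0 and 5 below, with a median of -0.06.

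In glycolysis, the members are the final enzyme and a regulator of the committed step. Pklr (chr3:89136142-89146594, plus strand) encodes the liver and red cell pyruvate kinase, which makes pyruvate and whose liver promoter holds the element shown above. WT livers had 494, 433, 383 and 434 CPM, and HKO livers 422, 469.8, 293 and 279.8 CPM. HKO livers 3 and 4 lay below every WT liver, and livers 1 and 2 lay among them. The log2 fold change was -0.25 ± 0.17 (edgeR adjusted p = 0.454), with a 95% interval of the fold from 0.650 to 1.09. It was -0.39 without HKO liver 2, -0.16 without HKO liver 3 and -0.14 without HKO liver 4. Since red cells also use Pklr, the erythroid genes are given beside it: their summed CPM ran from 56.9 to 212 in WT and from 64.1 to 89.7 in HKO livers, and 0 of 4 tested erythroid genes were called. Of these genes 3 of 4 were below 0, with a median log2 fold change of -1.88, and their part in the Pklr values was not tested.

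Mlxipl, the glucose-sensing factor that binds the carbohydrate response element, had 80.4, 98.6, 86.9 and 119 CPM in WT and 87.3, 126, 147 and 107 CPM in HKO livers (log2 0.28 ± 0.17, edgeR adjusted p = 0.404). Txnip, a target of Mlxipl that limits glucose uptake, had 86.1, 130.1, 123 and 77.6 CPM in WT and 102, 92.8, 73.6 and 92.9 CPM in HKO livers (log2 -0.21 ± 0.18, edgeR adjusted p = 0.574). Neither was called, and their ranges overlapped. Thrsp, a further gene induced by carbohydrate and named after its values were seen, had 172, 232, 112 and 82.1 CPM in HKO livers 1 to 4 against 172 to 332 CPM in WT livers (edgeR adjusted p = 0.291). Pklr and Thrsp put the 4 HKO livers in the same order, liver 2 highest, then 1, 3 and 4, a description of 4 livers that was not tested.

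Pfkfb1 (chrX:150587445-150643878, plus strand) encodes the liver form of the bifunctional enzyme that makes and removes the allosteric activator of phosphofructokinase. Its values of 35.8, 34.1, 35.9 and 34.8 CPM in WT livers lay closer together than those of any other member. HKO livers had 52.2, 42.4, 32.7 and 36.7 CPM, and the first of them was the highest of all 8 livers. The log2 fold change of 0.22 ± 0.13 was not called (edgeR adjusted p = 0.369), and without HKO liver 1 it was 0.08. Pfkl, the liver phosphofructokinase that this activator acts on, ranged from 11.7 to 14.3 CPM in WT and from 7.55 to 12.2 CPM in HKO livers, a log2 difference of -0.37 ± 0.15 that was not called (edgeR adjusted p = 0.199).

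Of 20 tested glycolysis genes 2 were called, both lower in HKO livers. Eno1, the enolase, had 119.95, 130.2, 121 and 119 CPM in WT and 96.9, 90.3, 85.4 and 93.3 CPM in HKO livers. The groups stood apart by more than the spread within either, and Eno1 fell by 0.42 ± 0.07 on the log2 scale (edgeR adjusted p = 0.00842). Ldha, the lactate dehydrogenase subunit, had 482, 554, 498 and 524 CPM in WT and 417, 381, 419.9 and 397 CPM in HKO livers and fell by 0.35 ± 0.08 on the log2 scale (edgeR adjusted p = 0.0271). Of all 20 genes 14 were below 0 and 6 above, with a median of -0.14.

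Khk came nearest to the threshold among the members. Khk (chr5:30921559-30931248, plus strand) encodes ketohexokinase, the kinase that commits fructose to metabolism in the liver. WT livers had 193, 209.6, 183 and 198 CPM, and HKO livers had 153, 191.4, 148 and 169.8 CPM. In HKO livers 1, 3 and 4 Khk was below every WT liver, and liver 2 lay within the WT range. The log2 fold change was -0.24 ± 0.09 (unadjusted p = 0.0223 and adjusted p = 0.167 by edgeR), and the 95% interval of the fold ran from 0.735 to 0.972, without adjustment for the number of genes. The exact permutation test gave p = 0.0571 (two-sided), and DESeq2 and limma-voom gave adjusted p = 0.143 and 0.164.

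An enzyme that acts after Khk had a lower mean in HKO livers as well, without a call. Tkfc, the triokinase that phosphorylates the glyceraldehyde formed from fructose, had 211, 231, 198 and 248 CPM in WT and 187, 199.6, 169 and 146 CPM in HKO livers (log2 -0.34 ± 0.11, edgeR adjusted p = 0.0980). Only the second HKO liver reached into the WT range of Tkfc. The fructose, polyol and galactose list had 10 tested genes, of which 9 were below 0 and 1 was called lower, with a median of -0.09. The called gene, Galk1, is the galactokinase of galactose use and not an enzyme of fructose. It had 16.7, 17.2, 11.5 and 11.4 CPM in WT and 7.22, 9.57, 6.31 and 7.32 CPM in HKO livers. The genotypes did not overlap, and Galk1 fell by 0.90 ± 0.18 on the log2 scale (edgeR adjusted p = 0.0167).

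**Figure D3:**
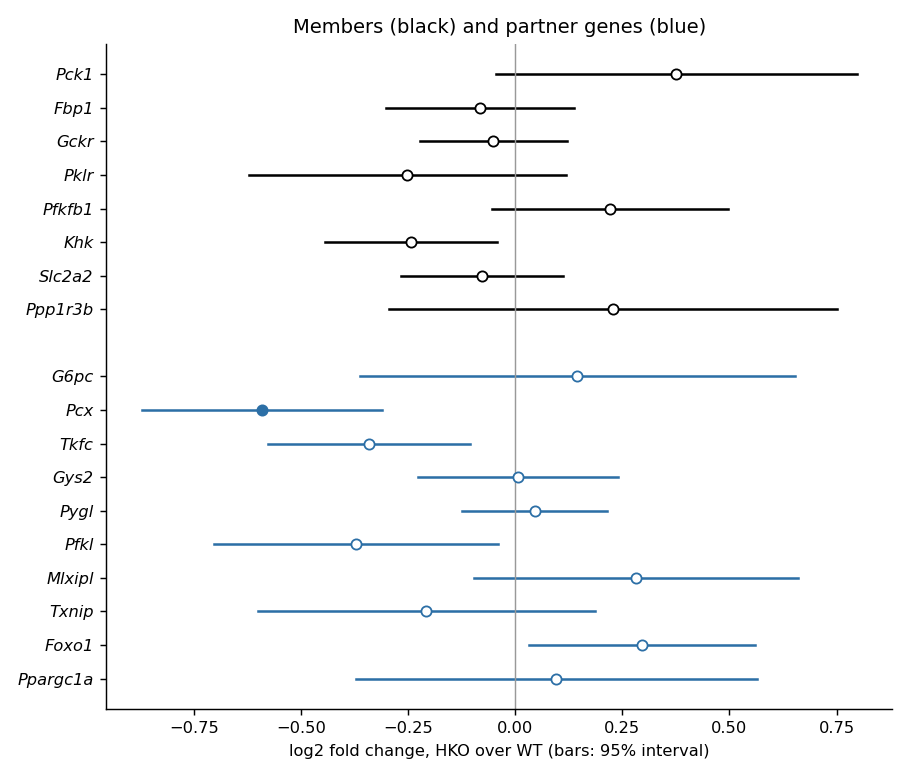
Fitted log2 fold change, HKO over WT (x axis), of the 8 members in black and 10 partner genes in blue, with 95% intervals from edgeR; a filled point marks an adjusted p under 0.05. The interval of Khk, without adjustment for the number of genes, lies below 0 among the members, and Pcx is the only filled point.

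Glycogen storage was represented by its targeting subunit. Ppp1r3b (chr8:35375759-35388137, plus strand) encodes the hepatic subunit that brings protein phosphatase to glycogen and so promotes glycogen synthase activity. WT livers had 262, 219, 281 and 294 CPM, and HKO livers had 410.3, 286, 357 and 183 CPM. HKO livers held both the highest and the lowest value of all 8, and their SD, 98.4 CPM, stood against 32.7 CPM in WT livers. The log2 fold change of 0.23 ± 0.23 was not called (edgeR adjusted p = 0.652), and its 95% interval, from 0.815 to 1.68 as a fold, is the widest of the 8. The log2 fold change was 0.06 without HKO liver 1 and 0.41 without HKO liver 4.

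Gys2, the liver glycogen synthase, had 234, 268, 232 and 244 CPM in WT and 227, 256, 207 and 292 CPM in HKO livers, a log2 difference of 0.01 ± 0.11 (edgeR adjusted p = 0.986). Pygl, the phosphorylase that releases glucose units, had 583, 558, 562 and 634 CPM in WT and 624, 578, 604 and 606 CPM in HKO livers, a log2 difference of 0.05 ± 0.08 (edgeR adjusted p = 0.812). All HKO livers lay within the WT range of Pygl, whereas for Gys2 livers 1 and 3 lay below it and liver 4 above, and the sign of these differences turned under total count scaling, to -0.08 and -0.04. Of 24 tested glycogen genes 1 was called: Gbe1, the branching enzyme, fell by 0.52 ± 0.12 on the log2 scale (edgeR adjusted p = 0.0337), from 303 to 386 CPM in WT to 187 to 274 CPM in HKO livers.

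Beyond the pathways of the members, calls were found where glucose carbon leaves glycolysis. In the pentose phosphate pathway, which makes NADPH and ribose, 2 of 10 tested genes were called lower: Tkt, transketolase, with 88.6, 93.8, 64.2 and 67.8 CPM in WT and 48.0, 51.8, 38.3 and 42.6 CPM in HKO livers, and Taldo1, transaldolase. Tkt fell by 0.80 ± 0.14 and Taldo1 by 0.46 ± 0.10 on the log2 scale (edgeR adjusted p = 0.00999 and 0.0213). Of 14 tested genes of pyruvate transport and oxidation 3 were called, all lower, and 12 were below 0, with a median of -0.25. Pdk4, the fasting-induced kinase that shuts off pyruvate dehydrogenase, had 12.1, 27.4, 12.0 and 10.8 CPM in WT and 4.05, 2.24, 4.56 and 3.06 CPM in HKO livers. It fell by 2.15 ± 0.36 on the log2 scale (edgeR adjusted p = 0.0145), and by 1.72 without WT liver 2, which stands above the others. Pdha1, a catalytic subunit of pyruvate dehydrogenase itself, fell by 0.44 ± 0.08 (edgeR adjusted p = 0.0113) and Mpc1, a subunit of the mitochondrial pyruvate carrier, by 0.45 ± 0.10 (edgeR adjusted p = 0.0233) on the log2 scale. The other subunits of the complex on the list, Pdhb, Dlat, Dld and Pdhx, were not called.

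Among 27 tested regulators of these genes 3 were called, all higher in HKO livers, beside 1.66% of all tested genes called higher. Of the 27 genes 23 were above 0, with a median of 0.12, where 6402 of 12395 tested genes were above 0. Total count scaling moved the median of all genes by -0.09, and the signs in this list were not counted under that scaling. Irs2, the insulin receptor substrate that fasting induces in liver, had 12.8, 14.4, 12.8 and 14.4 CPM in WT and 18.02, 16.7, 22.8 and 24.3 CPM in HKO livers and rose by 0.58 ± 0.13 on the log2 scale (edgeR adjusted p = 0.0264). Klf15, a factor that drives amino acid use in gluconeogenesis, rose by 0.47 ± 0.11 (edgeR adjusted p = 0.0373) and Hnf4a, a factor that defines hepatocytes and is also among the hepatocyte markers, by 0.36 ± 0.09 (edgeR adjusted p = 0.0406), 2 calls that were not made under total count scaling. Foxo1, which raises transcription of Pck1 and G6pc when insulin is low, ranged from 62.6 to 83.3 CPM in WT and from 74.3 to 109 CPM in HKO livers (log2 0.30 ± 0.12, edgeR adjusted p = 0.200). Ppargc1a, a coactivator of the same genes, had 21.7, 21.5, 20.5 and 19.8 CPM in WT and 18.1, 20.4, 16.4 and 34.6 CPM in HKO livers, and its log2 difference turned from 0.10 to -0.19 without HKO liver 4. Igfbp1, an insulin-repressed gene named after its values were seen, had 13.5 to 22.7 CPM in WT and 23.8, 22.9, 26.4 and 125 CPM in HKO livers (log2 1.55 ± 0.67, edgeR adjusted p = 0.267), and 0.54 without HKO liver 4.

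Counting each gene once, 14 of 126 tested genes of the 8 lists were called, 3 higher and 11 lower, which is 11.1% of them beside 5.03% of all tested genes, and all 14 lie among the 118 that are not members. Since the lists were chosen with earlier results of these data known, the difference between these shares is a description and was not tested. The medians were -0.03 for these 126 genes and 0.01 for all genes. The count was 4 without WT liver 1 or WT liver 2, 9 without HKO liver 2 and 6 without HKO liver 4, and it was 21 by DESeq2. The calls among all genes, 624 in the main fit, moved in the same fits. They were 272 without WT liver 1, 212 without WT liver 2, 474 without HKO liver 2, 364 without HKO liver 4 and 1014 by DESeq2. Eno1, Tkt and Pdha1 were called in each of the 8 fits that left out a single liver. Leaving out WT liver 1 or WT liver 2 ended the calls of Pcx, Gpi1, Ldha, Galk1, Gbe1, Taldo1, Mpc1, Irs2, Klf15 and Hnf4a. Without HKO liver 4 those of Pcx, Gpi1, Ldha, Gbe1, Taldo1, Pdk4, Irs2, Klf15 and Hnf4a ended, and without HKO liver 2 those of Pcx, Gpi1, Ldha, Gbe1, Klf15 and Hnf4a. Leaving out HKO liver 3 ended the calls of Gpi1, Gbe1, Mpc1 and Irs2, HKO liver 1 those of Gpi1, Mpc1, Klf15 and Hnf4a, WT liver 3 those of Pcx, Gpi1, Irs2, Klf15 and Hnf4a, and WT liver 4 that of Hnf4a. All these kept their direction.

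**Figure D4:**
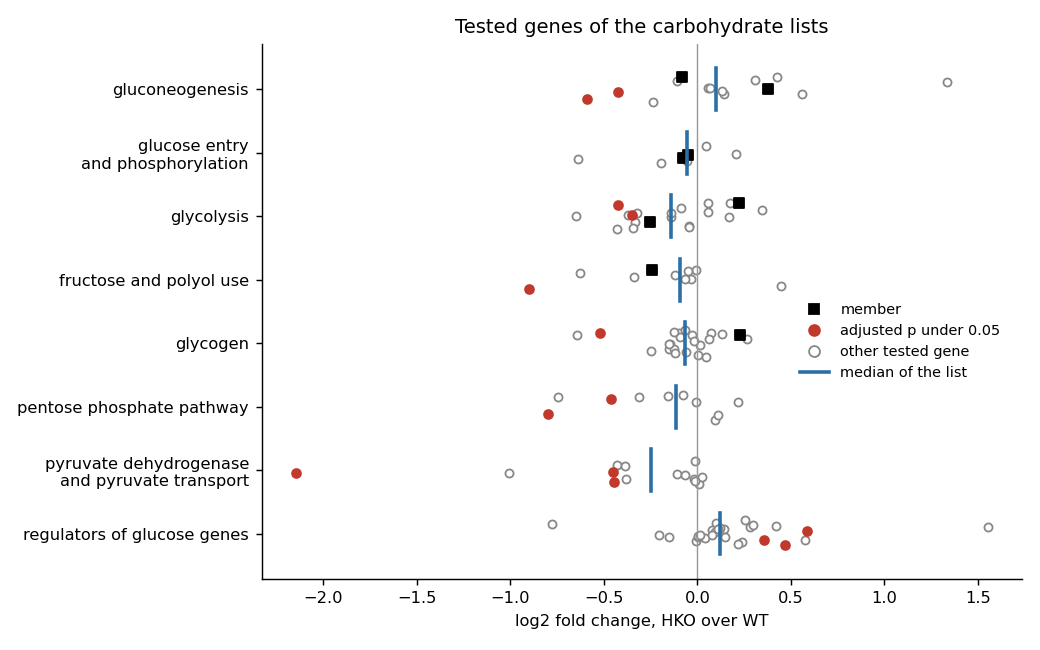
Fitted log2 fold change, HKO over WT (x axis), of every tested gene of the 8 carbohydrate lists (rows); black squares are members, red points genes with an adjusted p under 0.05 by edgeR, open points the other genes and blue bars the median of a list. No member is called, the 3 called regulators lie to the right of 0 and the other 11 called genes to the left.

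The spread between livers of 1 genotype, examined after the values had been seen, was larger in HKO than in WT livers for 7 of the 8 members, all but Pck1, where it was larger for 53.7% of all tested genes. The SD of log2 CPM of Pfkfb1 was 0.04 in WT and 0.29 in HKO livers, a ratio of 8.25 against a median ratio of 1.06 over all genes. For Slc2a2 the ratio was 3.91, for Ppp1r3b 2.73, for Pklr 2.51, for Gckr 2.26, for Khk 2.05 and for Fbp1 1.27. Pck1 had the same SD, 0.32, in both genotypes. With a single liver left out, the count was between 6 (without HKO liver 3, which stood apart, beside 49.6% of all genes) and 8 of 8, and under total count scaling it was 7. No test was made of it.

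**Figure D5:**
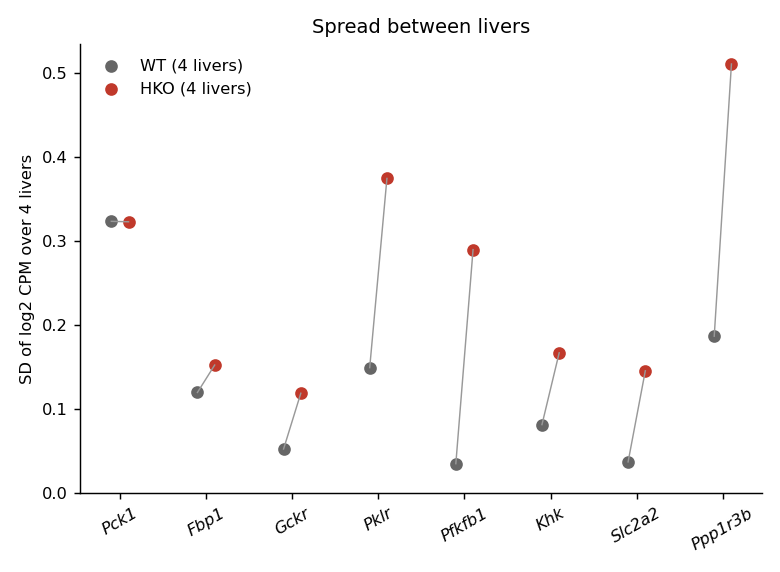
SD of log2 CPM over 4 livers (y axis) for each member, grey for WT and red for HKO, with a line that joins the genotypes. The red point lies above the grey point for 7 of 8 genes, and both lie at 0.32 for Pck1.

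Deviations of log2 CPM from the genotype means were compared across the 8 livers as a description, with no p, since all values share the same libraries and scaling. Among the 28 pairs of members the highest Pearson's r was 0.832, for Gckr and Pklr, and the lowest was -0.709, for Slc2a2 and Ppp1r3b. Pck1 and Fbp1, which act in the same pathway, had r = 0.677. The 3 tested genes most like Pck1 were Slc9a3r2 (r = 0.950), Mthfd2 (r = 0.941) and Strbp (r = 0.940). Closest to Fbp1 was Sel1l (r = 0.966), followed by Sds, the serine dehydratase that feeds gluconeogenesis (r = 0.959), and Slc22a18 (r = 0.953). Gckr was most like Aldh1a1 (r = 0.962), Itgam (r = 0.959) and Ripor2 (r = 0.953), and Pklr most like Slc1a5 (r = 0.979), Cenpw (r = 0.976) and Resf1 (r = 0.970). For Pfkfb1 these genes were Klhl13 (r = 0.992), Uba6 (r = 0.982) and Rhoj (r = 0.974), and for Khk they were Upp1 (r = 0.982), Hadh (r = 0.979) and Prodh2 (r = 0.964). The genes nearest to Slc2a2 were Cgn (r = 0.987), Slc27a5 (r = 0.980) and Ces1c (r = 0.972), and those nearest to Ppp1r3b were 2610044O15Rik8 (r = 0.982), Dnlz (r = 0.979) and Wdr82 (r = 0.971). With 8 livers and 12395 genes such values are common: between 27 (Pck1) and 116 (Ppp1r3b) genes had an absolute r of at least 0.9 with a member.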

How the data were processed

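RNA-Seq libraries from 4 WT and 4 HKO livers were analysed. The authors deposited estimated counts per gene from Partek's expectation-maximization quantification, without normalization; STAR and Partek are named in the submitters' processing notes, with no version. Of the deposited values 80.3% were whole; the method splits reads that match more than 1 gene, and Pklr and Khk had fractional values in 8 livers, Ppp1r3b in 7, Gckr in 6 and Pfkfb1 in 4. Both rRNA depletion and a small RNA kit appear in the labels, so the library type is uncertain. Coordinates are the listed ones on GRCm38, with the end taken as the listed stop minus 1 (17785 of 17810 symbols matched RefSeq; of these 65.3% had a listed stop of the RefSeq end plus 1, and 65.9% the same start). Genotypes were taken from the labels.

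Counts were rounded and tested in edgeR 4.0.16 (R 4.3.3; TMM, minimum count 10, robust quasi-likelihood F-test without the legacy option, common biological coefficient of variation 0.18) over 12395 genes, with Benjamini-Hochberg adjustment. Library sizes for CPM were TMM-scaled, and a prior count of 2 was added in log2 CPM for spread and likeness. Alternatives used DESeq2 1.42.0, limma-voom (limma 3.58.1), other scalings and filters, and each liver left out; exact permutation tests were two-sided. Exon lengths came from GENCODE M21. The models were tested on simulated data. Python 3.11.15, pandas 2.3.3, numpy 2.4.6 and matplotlib 3.10.9 were used.

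The text names all 8 members, up to 6 called genes per list, 10 partner genes whatever their value, and the 3 genes most like each member; Got1, Igfbp1 and Thrsp were added after their values were seen. Members and lists were chosen with earlier results of these data known. A few genes of the lists are not reported here, and the list counts leave them out.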

Additional observations from a re-analysis of the deposited data

Results flagged for a closer look

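Of 68 groups of 4 livers checked for a single value far from the other 3, 4 were marked, where chance gives about 1 in 20, or 3.4. None was a group of a member. WT liver 2 had 130.2 CPM of Eno1, and the other WT livers had 119.3 to 120.8 CPM. The same liver had 27.4 CPM of Pdk4, against 10.8 to 12.1 CPM in the others. WT liver 3 had 471 CPM of Hnf4a, against 434.9 to 441 CPM. HKO liver 4 had 125 CPM of Igfbp1, against 22.9 to 26.4 CPM in the other HKO livers.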

How the results depend on the processing

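For the 8 members all 152 alternatives kept the direction of the fold change and gave no call, and the lowest adjusted p of any member was 0.0759 (edgeR, Khk without HKO liver 2). The calls among all genes, 624 by the fit described above, were 1014 by DESeq2, 367 with a fold change above 1.5 required in addition and between 212 (without WT liver 2) and 598 when a single liver was left out. They were 272 without WT liver 1 and 364 without HKO liver 4. Total count scaling gave 740 calls, of which 119 were higher and 621 lower (16.1% higher, against 33.01%), with the median of all genes moved by -0.09. The legacy quasi-likelihood method, added after the data were seen, gave 638. The calls in the lists, 14, were 21 by DESeq2, 4 with the added fold change and between 4 and 14 with a single liver left out. Among 26 named genes of the lists, 410 of 494 alternatives kept direction and side, 70 lost a call, 4 gained one (all Got1) and 10 turned in sign. With a single liver left out, G6pc ranged from -0.0093 (without HKO liver 4) to 0.292, Ppargc1a from -0.190 (without HKO liver 4) to 0.218 and Gys2 from -0.0872 to 0.0802, below 0 without WT liver 1, WT liver 3, HKO liver 2 or HKO liver 4. Pygl was at -0.0411 by total counts. Gys2 was at -0.0017 by limma-voom, -0.0822 by total counts and -0.0038 with the replicate block. The cause of these shifts was not tested.

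Replicate numbers 1 to 4 occur in both genotypes on different mice. Same-numbered livers did not deviate together (r = -0.06, 0.01, -0.08 and -0.15), and 0 of 4 WT livers correlated best with the HKO liver of the same number. With the replicate number as a block, 456 genes, 11 list genes and 0 members were called, and the calls of Gpi1, Ldha, Pdk4, Irs2, Klf15 and Hnf4a were not made.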
